A study of Drosophila melanogaster with 5 samples.

Results

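The endosomal sorting complexes required for transport (ESCRT) were examined through 10 of the 17494 genes counted by RNA-seq in Drosophila melanogaster flight muscle. The 10 genes encode core subunits of ESCRT-I (TSG101, Vps28), ESCRT-II (Vps25, Vps36, lsn) and ESCRT-III (Vps20, shrb, Vps24, Vps2), and the ATPase Vps4. They were found by gene symbol and joined to the counts by FlyBase identifier, and all 10 were counted and tested. The list was chosen with the log2 fold changes of these same genes upon M1BP knockdown (KD) known, and in that sense was selected on them, so the KD values are given as a description, without p-values.

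Dorsolongitudinal flight muscles were dissected from pupae 48 h after puparium formation (APF) and reared at 25 °C. Pupae of both groups carried the muscle driver Mef2-GAL4. The WT group (replicates 1, 2 and 3) had no RNAi transgene, and the M1BP RNAi group (replicates 2 and 3) also carried UAS-M1BP RNAi, per the study the weaker of its lines, a KK insertion. M1BP is a zinc-finger protein that binds Motif 1, a core promoter element of many housekeeping genes, and the comparison asked which transcripts of developing flight muscle change when it is depleted. Each library pooled the muscles of 6 to 8 pupae, whose sex the labels do not give. Per the study, Mef2-GAL4 is also active in some neurons and Mef2 is expressed in the fat body, so the KD need not be limited to muscle. The study saw no sarcomere or mitochondrial defect in flight muscle after KD with a neuronal or a fat body driver. Mitochondrial defects recurred with another myoblast driver, Him-GAL4, and the study attributed the phenotypes to M1BP function in muscle. These controls concerned phenotypes, not transcripts. The study describes its replicates in general as independent biological ones. The labels do not say what was separate between libraries of a group, so p-values measure the spread between these libraries, which may be partly technical.

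ESCRT proteins act in sequence on the endosome. ESCRT-0 and ESCRT-I bind ubiquitinated membrane proteins, ESCRT-II links this cargo machinery to ESCRT-III, ESCRT-III polymers constrict the membrane bud, and Vps4 takes the polymers apart. The resulting multivesicular bodies deliver receptors to the lysosome, and the same machinery serves autophagosome closure, cytokinesis and membrane repair. In Drosophila epithelia, loss of ESCRT-I or ESCRT-II subunits is known for receptor accumulation and tissue overgrowth.

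The libraries held 41676901 to 57514444 counts. All 8 flight muscle markers (such as Act88F, fln and Mhc) were counted in every library, with a summed normalised count, which is the count after division by a DESeq2 size factor, of 1912829 to 2681905 in WT and 1757317 to 2078435 in M1BP RNAi. The target M1BP had normalised counts of 666, 673 and 642 in WT and 409.8 and 456 in M1BP RNAi (log2 fold change −0.61, SE 0.136, adjusted p 1.0e-04 by DESeq2), lower in both KD libraries as labelled, and when any 1 of the 5 libraries was left out the call was lost while the log2 fold change stayed between −0.68 and −0.52. Libraries of a group were not alike in other respects. The male-specific RNA lncRNA:roX1 stood at 14.4, 4994 and 1062 in WT and at 9618 and 5900 in M1BP RNAi. The 10 testis markers summed to 82.1 to 160 in WT, to 5160 in M1BP RNAi replicate 2 and to 212 in replicate 3, with sa at or near 0 in all 5 libraries and can at or near 0 except in M1BP RNAi replicate 2 (9.5). The 4 trachea markers summed to 62952 to 82549 in WT and 42257 to 51862 in M1BP RNAi, and the 5 fat body markers to 6236 to 13572 and 14162 to 14621. Sums of neuron markers were 2178 to 2588 and 1954 to 2155, those of hemocyte markers 2048 to 3441 and 1395 to 1996, and those of tendon and epidermis markers 5359 to 12531 and 3109 to 4946. The neuron sum was mostly elav (1695 to 1848 over the 5 libraries) and the hemocyte sum mostly Ppn (1349 to 3332). The hemocyte markers He and Hml stood at 0 to 1.06 and 3.93 to 22.6. The part of these markers and of lncRNA:roX1 in the ESCRT values was not tested. Fits without single libraries and with lncRNA:roX1 as a covariate are given with the results. Since lncRNA:roX1 was higher in both M1BP RNAi libraries than in any WT library, the covariate fit cannot separate it from KD.

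In WT flight muscle all 10 ESCRT transcripts were present, at levels that spanned 7.35-fold. Per-length levels were taken as TPM, counts per exon base scaled to the same total in every library. Their median over the 10 genes was 23.2 TPM, beside 6.38 TPM over all genes tested.

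**Figure D1:**
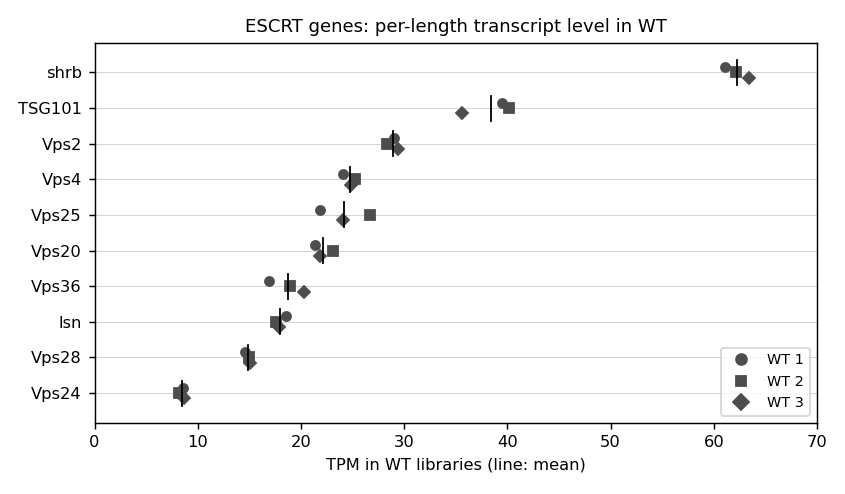
Per-length transcript level (TPM, linear axis) of the 10 ESCRT genes in the 3 WT libraries, ordered by the mean (vertical line). The level of shrb stands at 61.1 to 63.4 TPM and that of Vps24 at 8.19 to 8.69 TPM, while Vps25 overlaps with Vps4 and with Vps20, and Vps36 with lsn.

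The highest level was that of shrb, the Snf7 orthologue that forms the main ESCRT-III filament, at 62.2 ± 1.15 TPM (SD, n = 3), above 87.8% of all genes tested. TSG101, the ubiquitin-binding subunit of ESCRT-I, followed at 38.4 ± 2.46 TPM. Next came Vps2, an ESCRT-III subunit that recruits Vps4, at 28.9 ± 0.555 TPM. These genes did not overlap with their neighbours in the order in the 3 WT libraries. Vps4 (24.8 ± 0.601 TPM), Vps25 (24.2 ± 2.44 TPM) and Vps20 (22.1 ± 0.921 TPM) formed a middle group in which Vps25 overlapped with both of the others. Vps36 (18.7 ± 1.7 TPM) and lsn (18 ± 0.482 TPM) overlapped with each other. Vps28, the partner of TSG101 in ESCRT-I, stood lower, at 14.9 ± 0.236 TPM. Vps24, an ESCRT-III subunit that acts together with Vps2, was last at 8.47 ± 0.253 TPM, which was still above 55.7% of all genes tested. ESCRT-III thus held both the highest and the lowest transcript of the list.

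Upon M1BP KD, 2 of the 10 ESCRT genes passed the rule of the study (adjusted p ≤ 0.001 by DESeq2, change ≥ 1.5-fold), both downwards, namely Vps25 of ESCRT-II and TSG101 of ESCRT-I. None of the 10 was called higher. Across all 11282 genes tested, 6.75% were called, 2.98% lower and 3.78% higher. With the quasi-likelihood test of edgeR, 0 of the 10 passed at 0.001 (0.0814% of all genes in that test) and the same 2 passed at 0.05 (8.27% of all genes, 3.54% lower). Since this comparison chose the list, nothing is read from these counts. The median log2 fold change of the 10 genes was −0.04, with 4 positive and 6 negative values, beside 0.02 over all genes tested. In bulk muscle RNA, fewer cells expressing a gene and less RNA per cell cannot be told apart.

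**Figure D2:**
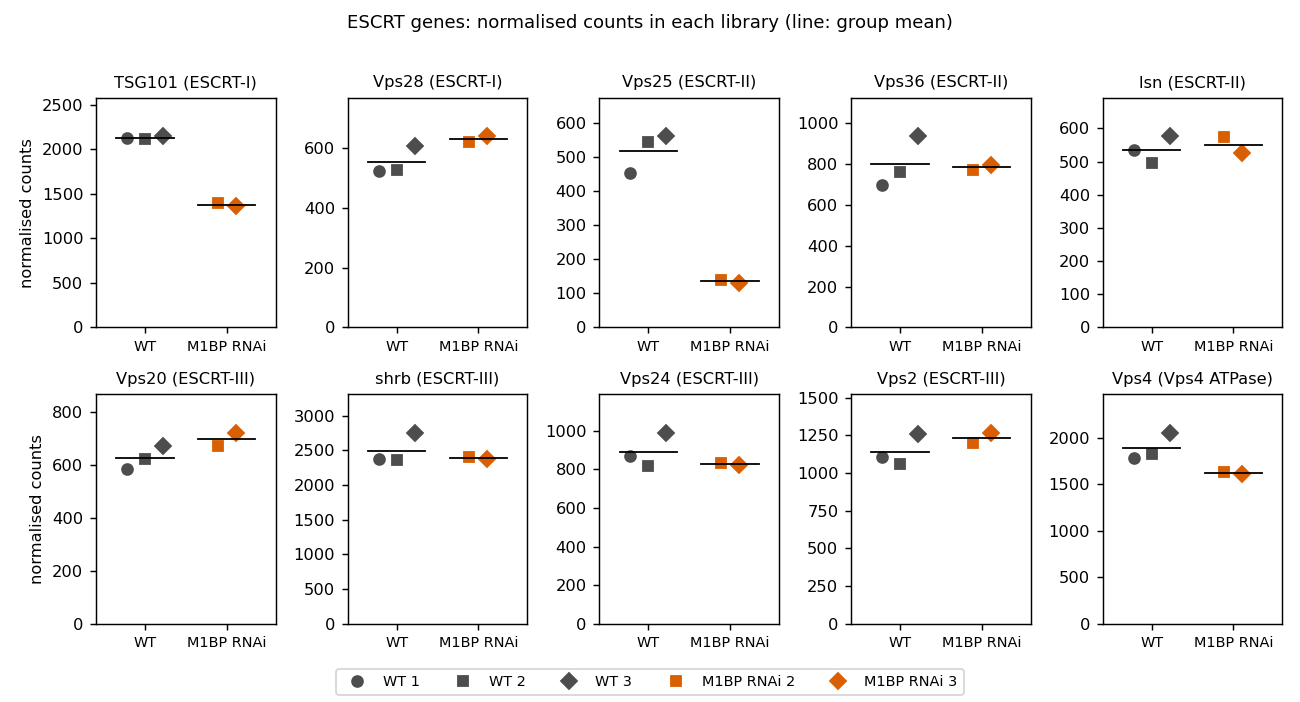
Normalised counts (linear axes from 0) of each ESCRT gene in the 3 WT libraries (grey) and the 2 M1BP RNAi libraries (orange), with a horizontal line at each group mean. Vps25 falls from 453 to 559.9 in WT to 131 and 140.3 in M1BP RNAi and TSG101 from 2115 to 2145 to 1363 and 1393, whereas the M1BP RNAi points of the other 8 genes lie among or close to the WT points.

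Vps25 (FBgn0022027, dm6 2R:8625451-8626180, plus strand, 678 exon bases) had normalised counts of 453, 543 and 559.9 in WT replicates 1, 2 and 3, and of 140.3 and 131 in M1BP RNAi replicates 2 and 3. Both KD libraries lay far below the lowest WT library. Vps25 is the ESCRT-II arm that contacts Vps20 and so starts ESCRT-III assembly in yeast. Its mean was 3.83-fold lower upon KD (518 ± 57.6, n = 3, against 135 ± 6.85, n = 2), a log2 fold change of −1.93 (SE 0.205), and rested on 409 to 526 raw counts in WT and 133 to 192 in M1BP RNAi. Its log2 fold change was −1.98 without M1BP RNAi replicate 2 and −2.08 with lncRNA:roX1 as a covariate, and it stayed past the threshold in each. With edgeR its log2 fold change was −1.93, and it passed at 0.05 and not at 0.001. No other annotated gene overlapped Vps25 or started within 1000 bases of its start.

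TSG101 (FBgn0036666, dm6 3L:16842294-16844585, plus strand, 1757 exon bases) had normalised counts of 2124, 2115 and 2145 in WT, and of 1393 and 1363 in M1BP RNAi. The 3 WT values agreed to within 0.713% (coefficient of variation, CV), the smallest WT spread among the 10 genes, and the groups were well apart. TSG101 contacts ubiquitinated cargo and ESCRT-0. Its mean was 1.54-fold lower upon KD (2128 ± 15.2 against 1378 ± 21.5), a log2 fold change of −0.63 (SE 0.077). This lies just past the 1.5-fold minimum. The call was lost without either M1BP RNAi library (log2 fold change −0.63 without replicate 2, −0.60 without replicate 3) and with lncRNA:roX1 as a covariate (−0.63), while the log2 fold change stayed between −0.64 and −0.60 in all 12 alternative settings. TSG101 overlaps the end of kud on the opposite strand by 18 bases, and kud had a log2 fold change of 0.12 (SE 0.197, adjusted p 0.709 by DESeq2).

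The partners of these genes in the same complexes did not pass the threshold. Vps28 (FBgn0021814, dm6 2R:8078869-8080041), which joins ESCRT-I to ESCRT-II in yeast, had normalised counts of 524, 525 and 605 in WT and of 620.2 and 638 in M1BP RNAi. Both KD libraries lay above all WT libraries, but the one nearest to them differed little from WT replicate 3. Its log2 fold change was 0.19, with a 95% interval of −0.10 to 0.48. Vps36 (FBgn0086785, dm6 3L:13511646-13513112), whose GLUE domain binds ubiquitin or membrane lipid, had 696, 763 and 936 in WT and 773 and 796 in M1BP RNAi. Both KD values fell inside the WT range, which at a CV of 15.5% was the widest of the 10 genes. The ESCRT-II subunit lsn (larsen, the Vps22 orthologue, FBgn0260940, dm6 3R:21865168-21866238) had 533, 496 and 576 in WT and 573 and 525 in M1BP RNAi, again inside the WT range. The log2 fold changes were −0.03 for Vps36 (95% interval −0.40 to 0.35) and 0.04 for lsn (−0.26 to 0.34), and each had the other sign in 2 of 12 alternative settings.

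The unequal change within complexes also appeared as ratios of per-length levels taken inside each library, which do not depend on how libraries are scaled to each other. The ratio of Vps25 to Vps36 was 1.29, 1.41 and 1.19 in WT and 0.360 and 0.326 in M1BP RNAi. This was a mean 3.78-fold lower ratio, with no overlap. The ratio of Vps25 to lsn likewise went from 1.35 ± 0.170 in WT to 0.342 ± 0.00363 in M1BP RNAi, 3.94-fold lower. By contrast, the ratio of Vps36 to lsn was 1.04 ± 0.116 in WT and 1.00 ± 0.0823 in M1BP RNAi, and the groups overlapped. In ESCRT-I, the ratio of TSG101 to Vps28 was 2.71, 2.69 and 2.37 in WT and 1.5 and 1.43 in M1BP RNAi, 1.77-fold lower on average. Within ESCRT-III, where no gene was called, the ratios of shrb to Vps20 and to Vps2 also did not overlap between groups, by smaller differences. No share over all gene pairs was computed for ratios. Among single genes tested, 48.9% did not overlap in either direction, so nothing is read from the separation of a ratio. The ratio of shrb to Vps20 was 2.82 ± 0.115 in WT and 2.44 ± 0.146 in M1BP RNAi, and that of shrb to Vps2 was 2.15 ± 0.0434 and 1.91 ± 0.0893, while that of shrb to Vps24 overlapped (7.35 ± 0.216 and 7.59 ± 0.00855). These ratios are built from the counts of the members and describe the same difference in another form.

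**Figure D3:**
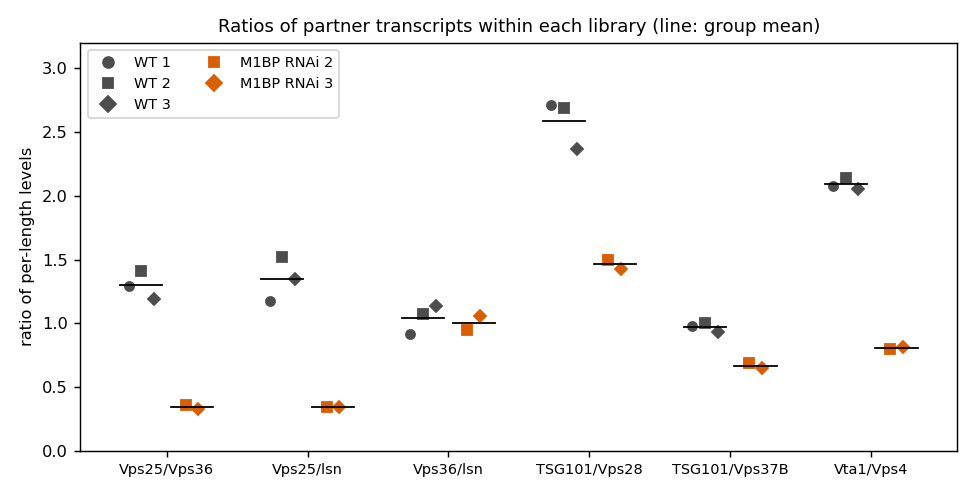
Ratio of the per-length levels of partner genes within each library (linear axis from 0), with WT libraries in grey, M1BP RNAi libraries in orange and a horizontal line at each group mean. Of the 6 ratios drawn, Vps25/Vps36, Vps25/lsn, TSG101/Vps28, TSG101/Vps37B and Vta1/Vps4 separate the groups, and Vps36/lsn (1.04 in WT, 1.00 in M1BP RNAi) does not.

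None of the 4 ESCRT-III genes was called. The filament subunit shrb (FBgn0086656, dm6 2R:9142146-9143914) had normalised counts of 2369, 2361 and 2753 in WT and of 2405 and 2379 in M1BP RNAi. Apart from WT replicate 3, all libraries lay close together. The nucleating subunit Vps20 (FBgn0034744, dm6 2R:22608310-22609419), which ESCRT-II contacts, had 588, 624 and 673 in WT and 672 and 724 in M1BP RNAi, and the groups met at WT replicate 3. Vps24 (FBgn0037231, dm6 3R:4307435-4310947) had 868, 817 and 989.9 in WT and 832 and 822 in M1BP RNAi, and Vps2 (FBgn0039402, dm6 3R:26052821-26054128) had 1107, 1059 and 1258 in WT and 1200.3 and 1268 in M1BP RNAi. All 4 groups of KD values overlapped with WT. The log2 fold changes were −0.06 for shrb (95% interval −0.29 to 0.17), 0.15 for Vps20 (−0.12 to 0.43), −0.11 for Vps24 (−0.40 to 0.18) and 0.11 for Vps2 (−0.15 to 0.38).

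Vps4 (FBgn0283469, dm6 X:17907692-17911097), the AAA ATPase that recycles ESCRT-III and the only X-linked gene of the list, had normalised counts of 1778, 1827 and 2055 in WT and of 1635 and 1613 in M1BP RNAi. Both KD libraries lay below the lowest WT library by a small margin. The log2 fold change was −0.22 (SE 0.116, 95% interval −0.44 to 0.01), which did not pass the threshold. With Vps25 and TSG101, Vps4 made 3 genes whose KD libraries lay wholly below WT, and Vps28 was the only one wholly above. Among all genes tested, 21.9% were wholly below and 27.1% wholly above, 48.9% in all.

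Counts were also summed over the listed genes of each complex, as normalised counts per kilobase of exon. The ESCRT-I sum of TSG101 and Vps28 was 1681 ± 47.9 (SD) over the 3 WT libraries and 1321 ± 1.44 over the 2 M1BP RNAi libraries, a ratio of 0.786. With Vps37B, a further ESCRT-I gene outside the list, it was 2929 ± 106 and 2496 ± 29.0, a ratio of 0.852. The ESCRT-II sum was 1927 ± 192 in WT and 1366 ± 33.5 in M1BP RNAi, a ratio of 0.709. For both complexes, with or without Vps37B, each KD library lay below each WT library. Among single genes tested, 21.9% did so. Each sum holds a called gene, TSG101 or Vps25. The KD means of the uncalled genes in these sums were 114% of WT for Vps28, 94.2% for Vps37B, 98.3% for Vps36 and 103% for lsn. The lower sums therefore do not show a fall shared by the subunits. The ESCRT-III sum was 3850 ± 327 in WT and 3902 ± 62.4 in M1BP RNAi, a ratio of 1.01 with overlapping groups. In the order of per-length levels, Vps25 moved from place 5 in WT to place 10 in M1BP RNAi and TSG101 from place 2 to place 3.

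Among WT libraries, the 10 genes peaked in the same one. WT replicate 3 had the highest normalised count of the 3 WT libraries for all 10, beside 37.6% of all genes tested, 8 of 14 other ESCRT genes and 6 of 19 endosomal genes. The margin was small for TSG101 (2145 against 2124 in WT replicate 1), and the 10 values share 1 library and are not independent. Without WT replicate 3 the median log2 fold change of the list was 0.05 in place of −0.04.

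The ESCRT genes outside the list were taken as ESCRT-0, the remaining ESCRT-I and ESCRT-III-related genes, and associated factors, of which 14 of 15 names matched. This list and that of the endosomal genes below were also chosen with earlier results of these data known. Their p-values are therefore given as a description, not as independent tests. Of the 14 matched genes, 1 was called (7.14%, beside 6.75% of all genes tested). This was Vta1 (FBgn0035251, dm6 3L:1651432-1652900, minus strand), the cofactor that stimulates Vps4 in yeast. Its normalised counts were 1923, 2036 and 2202 in WT and 682 and 683 in M1BP RNAi. Both KD libraries lay far below every WT library and nearly coincided. The mean was 3.01-fold lower (2054 ± 141 against 683 ± 0.701), a log2 fold change of −1.59 (SE 0.116, adjusted p 2.0e-40 by DESeq2, 0.0015 by edgeR), lower in 2 of 2 KD libraries. Vta1 stayed past the threshold without each library in turn and with lncRNA:roX1 as a covariate, and among the alternatives missed it only under edgeR at 0.001. The per-length ratio of Vta1 to Vps4 was 2.09 ± 0.0426 in WT and 0.806 ± 0.00852 in M1BP RNAi.

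The first 151 of the 1257 exon bases of Vta1 overlap CG7970 on the opposite strand, and the starts of both genes lie 150 bases apart. CG7970 had normalised counts of 1132, 1098 and 1059 in WT and of 557 and 645 in M1BP RNAi, and was also called lower (log2 fold change −0.87, SE 0.133, adjusted p 2.3e-09 by DESeq2). At its other end Vta1 shares 70 bases with CG13920, which had 2812, 3515 and 3869 in WT and 6724 and 5509 in M1BP RNAi and was called higher (log2 fold change 0.85, SE 0.192, adjusted p 1.5e-04 by DESeq2). Whether counting used the strand is not stated, so how reads in the shared bases were treated is not known.

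The other 13 of these genes were not called, with log2 fold changes between −0.46 and 0.16. Of the 14 values, 12 were negative (median −0.16, beside 0.02 over all genes tested). The share of negative values over all genes was not computed, so nothing is read from that count. The lowest of the uncalled values belonged to mop (Myopic, the HD-PTP orthologue that helps hand cargo to ESCRT-III). It had 1529, 1734 and 1447 in WT and 1105 and 1180.1 in M1BP RNAi (log2 fold change −0.46, SE 0.136, adjusted p 0.0060 by DESeq2). Ist1, an ESCRT-III-related protein, had a log2 fold change of −0.38 (adjusted p 0.068 by DESeq2). The ESCRT-0 genes Hrs and Stam, which gather ubiquitinated cargo, had log2 fold changes of −0.25 and −0.28 (adjusted p 0.064 and 0.12 by DESeq2). The third ESCRT-I component Vps37B had −0.09, so that the TSG101 to Vps37B ratio went from 0.972 ± 0.0386 to 0.668 ± 0.0277. At an unadjusted p under 0.05 by DESeq2, 5 of the 14 passed, a share equal to the 35.7% of all genes tested.

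**Figure D4:**
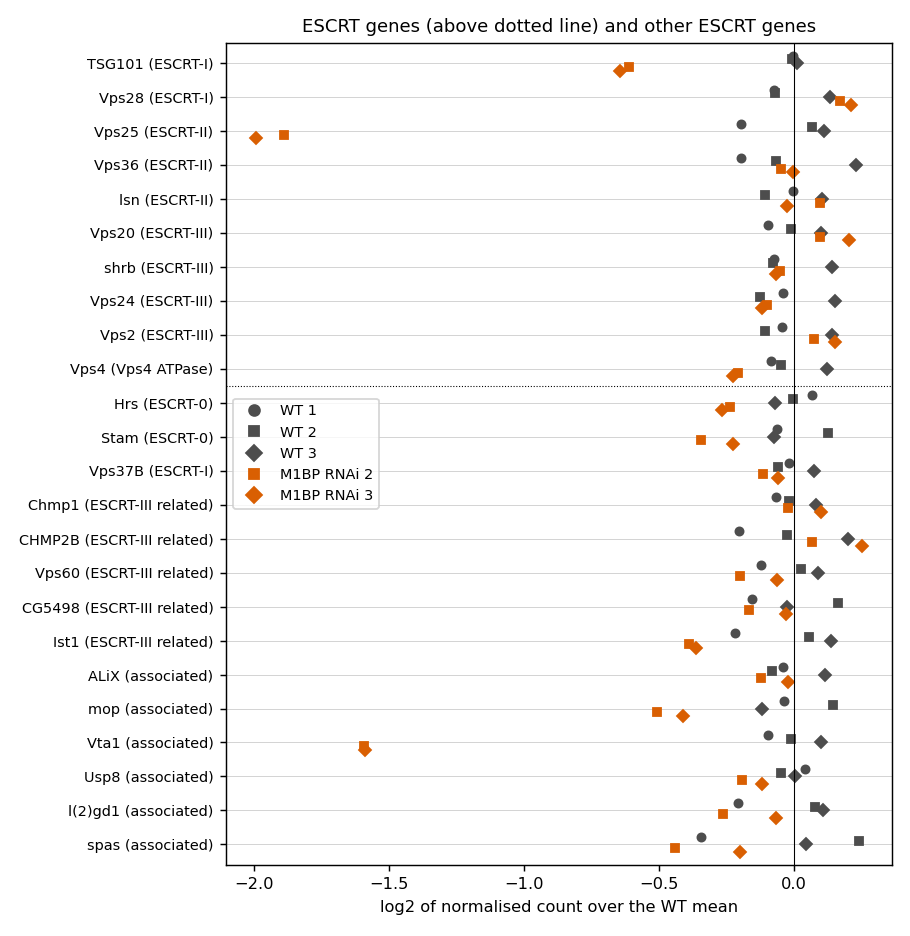
Log2 ratio of the normalised count of each library to the WT mean, for the 10 ESCRT genes (above the dotted line) and the 14 other ESCRT genes (below it), with WT libraries in grey and M1BP RNAi libraries in orange. Vps25, Vta1 and TSG101 have both M1BP RNAi points at −0.61 or below, farther left than those of any other gene shown.

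Of 19 genes of neighbouring endosomal machinery (HOPS and CORVET tethers, retromer, Rab GTPases and the Vps34 lipid kinase), 1 was called. That is 5.26%, beside 6.75% of all genes tested. Rab4, a GTPase of fast endosomal recycling, had normalised counts of 1629, 1557 and 1609 in WT and of 1056 and 982 in M1BP RNAi. The groups did not overlap, as for 48.9% of all genes tested. The log2 fold change of Rab4 was −0.65 (SE 0.097, adjusted p 1.1e-09 by DESeq2, 0.012 by edgeR). Its call was lost without WT replicate 1 or without either M1BP RNAi library, while the log2 fold change stayed between −0.69 and −0.59 without any single library. Rab5, which directs early endosome fusion, had 3402, 3449 and 3399 in WT and 4910.1 and 5191 in M1BP RNAi. It was higher in both KD libraries (log2 fold change 0.56, SE 0.070, adjusted p 4.3e-14 by DESeq2, 0.012 by edgeR) but did not reach the 1.5-fold minimum. The median over the 19 genes was −0.07, and 6 of them had an unadjusted p under 0.05, close to the 35.7% of all genes tested. Rab7, the late endosomal GTPase, had a log2 fold change of −0.15 (adjusted p 0.092 by DESeq2), and the retromer subunits Vps35 and Vps29 had −0.26 and 0.26 (adjusted p 0.0082 and 0.035 by DESeq2).

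Several of the 10 genes lie close to, or overlap, a gene on the other strand, and these neighbours were measured too. Starts of shrb and Prp38 lie 42 bases apart, those of Vps36 and Liprin-beta 142, Vps4 and CG7772 431, Vps2 and Exo84 564, and Vps24 and Suv3 608. None of these 5 neighbours was called, and their log2 fold changes ranged from −0.20 (Exo84) to 0.19 (Liprin-beta). Vps24 covers all 1525 exon bases of MP1 on the opposite strand (log2 fold change of MP1 −0.38, SE 0.176, adjusted p 0.096 by DESeq2) and 739 bases of asRNA:CR46140, which had at most 13.8 normalised counts in any library. The value of Vps24 is therefore uncertain if counting ignored the strand. The overlaps of lsn with CG6569 (67 bases) and of Vps20 with CG4329 (86 bases) are short. CG6569 had normalised counts of 2.38 to 7.75 in WT, of 137 in M1BP RNAi replicate 2 and of 10.8 in replicate 3, and CG4329 had 44.0 to 79.7 in WT, 214 and 109 in M1BP RNAi. In M1BP RNAi replicate 2, lsn had 573 and Vps20 had 672. The snoRNAs near Vps20, snoRNA:Psi28S-1175c and snoRNA:Or-aca1, had 6.39 to 29.9 normalised counts in all libraries.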

How the data were processed

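The deposited table holds raw counts of uniquely aligned reads over the exons of each gene (dm6 build, per the file headers) and the exon length in bases. The submitters' processing notes name bcl2fastq 2.17.1.14, Subread 2.0.3 with featureCounts and DESeq2. Whether counting used the strand is not given in the sources used here. Per the labels, libraries were made from 100 ng of RNA with a stranded mRNA kit and 13 PCR cycles. Another deposited table with the comparison made by the authors (mean normalised values, log2 fold changes and p-values) was used only to pair symbols with identifiers. No count column was left unmapped (0).

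Samples were grouped by title. Counts of all 5 libraries were fitted in R 4.3.3 with the Wald test of DESeq2 1.42.0 at default settings, adjusting p-values by Benjamini-Hochberg over 11282 genes, and genes were called at adjusted p ≤ 0.001 and fold ≥ 1.5. Alternatives were the quasi-likelihood test of edgeR 4.0.16, TMM scaling, an added low-count filter and the DESeq2 filter on mean counts switched off. Further ones were other thresholds, a replicate block, an lncRNA:roX1 covariate and leaving out each library. The scripts were tested on simulated counts. Normalised counts are given with SD over libraries, log2 fold changes (M1BP RNAi over WT) with SE, and intervals are 95% Wald intervals. TPM was computed from counts and exon lengths and used only between genes or within a library. Genes named are the 10 members, M1BP, called genes of the 2 other lists and genes overlapping, or starting within 1000 bases of, a member. mop, Ist1, Hrs, Stam, Vps37B, Rab5, Rab7, Vps35, Vps29, CG7970 and CG13920 were named in addition after their values were seen. Members, lists and alternatives were chosen with earlier results of these data known. Positions and overlaps are from the exon coordinates deposited with the counts. They were checked against the Ensembl release 115 annotation, in which 17358 of 17494 identifiers, and all 10 members with the same span, were found.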

Additional observations from a re-analysis of the deposited data

How the results depend on the processing

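The count of 2 called ESCRT genes held under TMM scaling, both filters on low counts, an adjusted p of at most 0.05, no fold minimum and, an alternative added after seeing the data, edgeR at an adjusted p of at most 0.05. It was 0 with edgeR at 0.001, 1 with the replicate block, 1 with the lncRNA:roX1 covariate and 1 to 2 without single libraries. Vps25 remained in each of these except edgeR at 0.001, and TSG101 was the gene lost. Of the other ESCRT genes, 1 was called in every setting except edgeR at 0.001 (0). Of the endosomal genes, 0 were called with edgeR at 0.001, the replicate block or the covariate, 2 without a fold minimum (Rab4 and Rab5) and 0 to 1 without single libraries. Over all genes, the 762 calls became 8 with edgeR (4 higher, 4 lower), 315 with the replicate block (119 higher, 196 lower), 302 with the covariate (133 higher, 169 lower) and 1799 at an adjusted p of at most 0.05 (1187 higher, 612 lower), and 319 to 937 without single libraries (491 without WT replicate 2, 319 without M1BP RNAi replicate 2). Why edgeR called fewer genes was not tested. The call of M1BP itself was lost without any one library, with log2 fold changes of −0.68 to −0.52. Replicate numbers 2 and 3 are shared by both groups, but the labels do not say that they mark a batch. Over 7589 genes, deviations from the group means correlated at −0.26 for the libraries numbered 2 and −0.12 for those numbered 3. With 2 M1BP RNAi libraries, the deviations of one mirror those of the other, so these values cannot decide whether the numbers mark pairs. The block was not read as pairing. The median log2 fold change of the 10 genes stayed between −0.11 and 0.05, inside the WT spread (SD 0.115). In the WT order of levels, 0 to 2 genes changed place without single libraries. With 3 against 2 libraries, small changes may be missed, and an absence of calls does not show equal levels. The promoter motif search was not run, since no promoter sequences were used here.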
